A study of Mus musculus with 2 samples.

Results

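The 10 main tubulin isotypes of the mouse retina were followed at E14.5, as the 3 alpha-tubulin genes Tuba1a, Tuba1b and Tuba1c and the 7 beta-tubulin genes Tubb2a, Tubb2b, Tubb3, Tubb4a, Tubb4b, Tubb5 and Tubb6. They were taken by symbol, and each was found as 1 row among the 28692 genes of both count matrices. Retinas of mouse embryos heterozygous for the bacterial artificial chromosome reporter Tg(Lhx4::EGFP)KN199Gsat/Mmucd were dissociated, and the suspension, pooled from GFP-positive retinas of 2 litters, was sorted into a GFP+ and a GFP- fraction. The GFP+ fraction is labelled as cone photoreceptors and the GFP- fraction as retinal cells, and both carry the transgene. Each fraction gave 1 droplet library of 3′ ends (10x Chromium v2), in which a transcript is counted once through its unique molecular identifier (UMI), whatever its length. The libraries had no replicate, so every interval below is an exact 95% interval of counting error alone and no test between gates or cell classes was made.

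Alpha- and beta-tubulin pair into the subunits of which microtubules are built, and vertebrates encode several isotypes of each, which differ mostly in their acidic tails. Dividing cells use them in the mitotic spindle, while young neurons use them in growing axons and dendrites. Tubb3 is the beta isotype used throughout neurobiology as a neuron marker, and Tuba1a, Tubb2a and Tubb2b are also abundant in developing neurons. Tubb5, Tubb4b, Tubb6 and the alpha isotypes Tuba1b and Tuba1c are found in many kinds of cell.

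Sequencing gave 16010591 UMIs over 3728 GFP+ cells and 46778924 UMIs over 4445 GFP- cells, and 20 barcodes occurred in both. Cells with at least 250 and under 3500 genes were kept, which left 3689 GFP+ and 3389 GFP- cells with a median of 3894 and 8848 UMIs. Cells were classed by UMIs of marker genes, with no tubulin among them: at least 3 UMIs from at least 2 genes of a class. Progenitors, ganglion cells, amacrine cells and cones had at most 1 UMI of each other list among them. Neurogenic cells had at most 1 UMI of the ganglion, amacrine and cone lists and were taken out of the progenitors. Progenitor UMIs were allowed in them (Ccnd1 at 1195 CPM against 2199 in progenitors), and neurogenic UMIs were not limited in the other classes. This gave 1833 progenitors, 324 neurogenic cells (Atoh7, Neurog2, Olig2), 214 ganglion cells and 178 amacrine cells (Tfap2a, Tfap2b, Ptf1a, Prdm13) in the GFP- library, 3472 cones in the GFP+ library and 51 cones in the GFP- library. The amacrine list was meant to cover horizontal cells too, and the paper used Tfap2b and Ptf1a for a joint amacrine and horizontal cluster. Amacrine cells below are therefore not separated from horizontal cells. The rule left out 263 of 477 cells with ganglion markers and 173 of 351 with amacrine markers for UMIs of another class, and 4.93% of GFP+ and 23.3% of GFP- cells were in no class. Markers that the rule had not used mostly followed the classes. Gap43, an axon growth protein, reached 2003 CPM (UMIs of a gene per 1000000 UMIs of the class) in ganglion cells against 25.8 in progenitors, Crx, a photoreceptor transcription factor, 848 in GFP+ cones against 1.66 in progenitors, and Dapl1, a progenitor gene, 875 in progenitors against 10.1 in GFP+ cones. In amacrine cells Pax6 was at 1817 CPM, against 978 in ganglion cells and 587 in progenitors, and Prox1 at 90.4 CPM, against 10.6 and 10.2. Gad1, the enzyme of GABA synthesis, had only 2 UMIs in amacrine cells (1.66 CPM). Ganglion markers outside the rule were less distinct against amacrine cells than against progenitors. Gap43 was at 331 CPM in amacrine cells. Nefl was at 245 against 717 in ganglion cells, Nefm at 315 against 548 and Elavl4 at 82.9 against 804.

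With the limit on genes, the Tubb3 share of beta-tubulin differed most between progenitors and ganglion cells. In progenitors Tubb5 made up 80.6% of beta-tubulin UMIs and Tubb3 2.62% (2.5 to 2.74%). In ganglion cells Tubb3 was the leading isotype with 41.5% (41 to 42.1%), ahead of Tubb5 with 34.5% and Tubb2b with 20.2%. Amacrine cells held Tubb3 and Tubb5 at nearly the same share, 36.8% (36 to 37.7%) and 36.1% (35.2 to 36.9%). GFP+ cones differed from both other neurons, as Tubb5 remained the leading isotype with 56%, Tubb2b came next with 26.9% and Tubb3 was at 13.5% (13.2 to 13.8%). The difference in the Tubb3 share from progenitors was 38.9 percentage points (38.4 to 39.4) in ganglion cells, 34.2 (33.3 to 35) in amacrine cells and 10.9 (10.5 to 11.2) in GFP+ cones. The cone value sets the GFP+ against the GFP- library, so class and library cannot be told apart in it. The ganglion value rested partly on the gene limit: without it, 396 ganglion cells entered and their Tubb3 share was 36.9%. Amacrine cells were then at 36.8%, and the differences from progenitors were 34.6 and 34.4 points. The lead of ganglion over amacrine cells in this share thus rested on the limit.

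**Figure D1:**
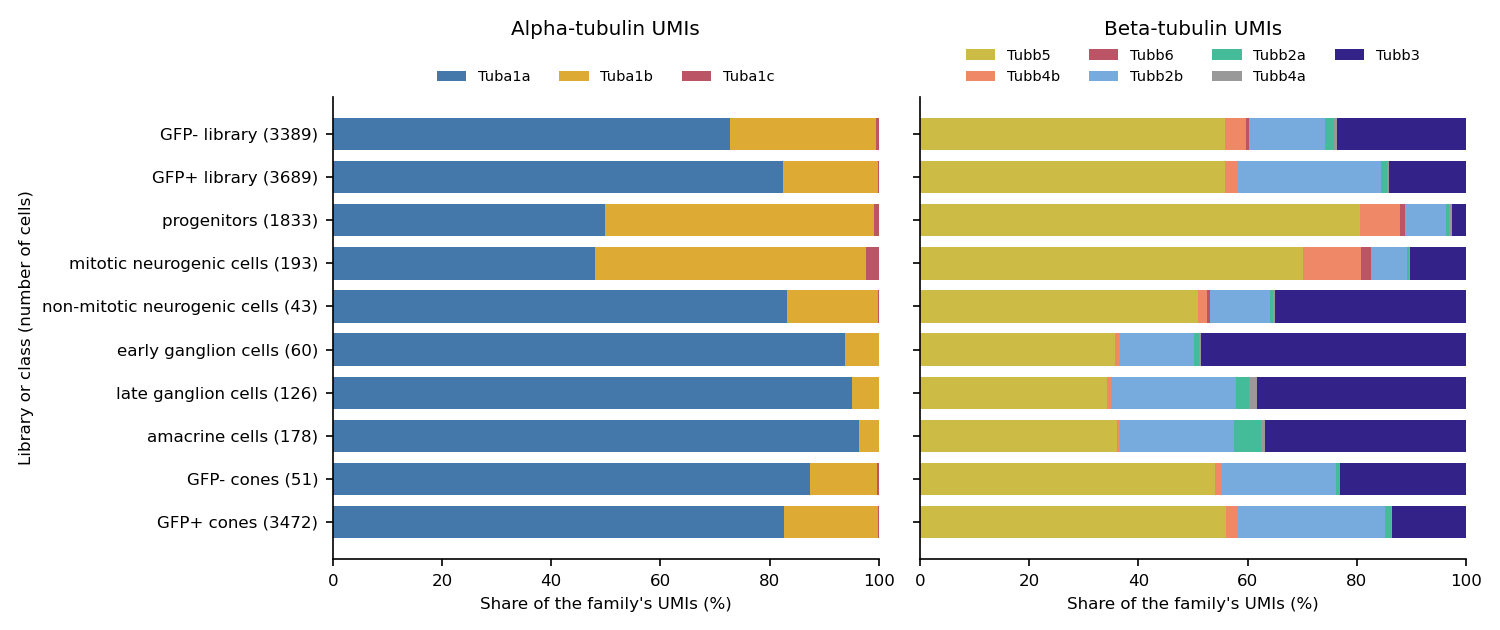
Share of each isotype among the alpha-tubulin UMIs (left) and beta-tubulin UMIs (right), in percent, of each library and marker class, with the number of cells in parentheses. Tuba1b and Tubb5 take less, and Tuba1a and Tubb3 more, of the bars of ganglion and amacrine cells than of progenitors, and Tubb3 takes 13.5% in GFP+ cones against 41.5% in all ganglion cells.

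Tubb3 was at 107 CPM in progenitors, 795 in neurogenic cells, 6633 in ganglion cells, 3787 in amacrine cells and 455 in GFP+ cones. The level was 62.1-fold higher (59.2 to 65.3) in ganglion cells and 35.5-fold higher (33.6 to 37.5) in amacrine cells than in progenitors, and 4.27-fold higher (4.05 to 4.5) in GFP+ cones. Ganglion cells thus held 14.6 times (14.1 to 15) the Tubb3 level of GFP+ cones. Every comparison of GFP+ cones with another class also sets the GFP+ against the GFP- library, so class and library cannot be told apart in it. The 51 cones of the GFP- library held Tubb3 at 1260 CPM, 2.77 times (2.47 to 3.09) the level of GFP+ cones and far below the 6633 CPM of ganglion cells. The progenitor level of Tubb3 was 1.61% of its ganglion level. Genes of neurons stood at similar values, with Gap43 at 1.29%, the neurofilaments Nefl and Nefm at 1.64% and 1.94% and Stmn2, a tubulin-binding stathmin, at 1.54% of their ganglion levels. When a ganglion profile scaled to the median of these 4 genes (1.59%) was taken off the progenitor sums, a Tubb3 share of 0.0287% was left. That remainder follows from the closeness of 1.61% to 1.59%. Free RNA itself was not measured, so the source of progenitor Tubb3 was not tested. For Tuba1a, Tubb2b, Tubb2a and Tubb4a the progenitor level was 16%, 9.47%, 8.6% and 9.59% of the ganglion level, above that of the neuron genes.

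Single cells spread widely within a class, and neurogenic cells, above GFP+ cones in the summed share (14.8% against 13.5%), were below them in the median cell. Among cells with at least 10 beta-tubulin UMIs, the median Tubb3 share was 1.5% in progenitors (46.9% of them without a Tubb3 UMI), 8.7% in neurogenic cells, 44.7% in ganglion cells, 36.7% in amacrine cells and 10.7% in GFP+ cones. This minimum kept 1982 of 3472 GFP+ cones (57.1%), so the cone values leave out those with the fewest tubulin UMIs. It kept 97.3% of progenitors, 98.5% of neurogenic cells and all ganglion and amacrine cells. The middle 50% of ganglion cells lay between 37.8% and 50.2% and those of neurogenic cells between 2.44% and 27.5%. The standard deviation over neurogenic cells was 17.1 percentage points, where drawing UMIs at a common share would give 5.99. In GFP+ cones the values were closer, 10.8 against 8.49, at a median of 17 beta-tubulin UMIs against 42 in neurogenic cells. After each cell was thinned to 3200 UMIs, Tubb3 was found in 23.9% (21.9 to 25.9%) of progenitors, 67.5% (62.1 to 72.6%) of neurogenic cells, all 213 ganglion and 177 amacrine cells that were deep enough and 62.2% (60.4 to 63.9%) of GFP+ cones. Thinning left out 536 shallower GFP+ cones, against 14 progenitors. The unthinned shares were 52.4%, 84.9%, 100%, 100% and 66.1%. The medians of depth were 9246 UMIs in progenitors and 3876 in GFP+ cones. Progenitors also spread more than a common share would give, with a standard deviation of 4.79 against 2.94 percentage points, and the part of free RNA and of single cells with Tubb3 in their share was not tested.

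**Figure D2:**
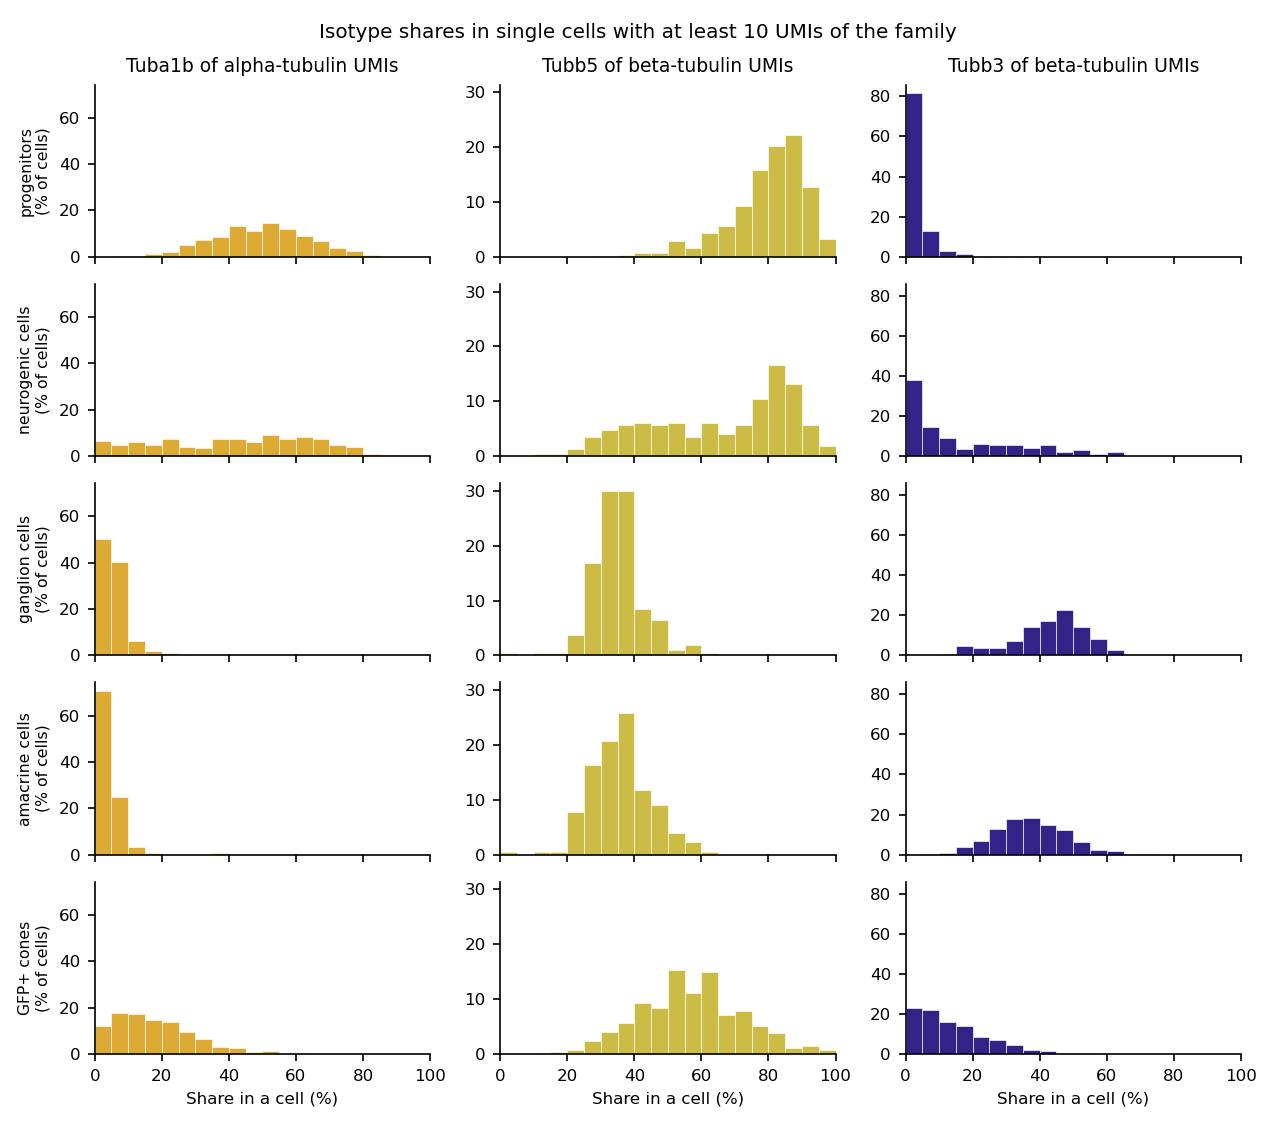
Distribution over cells of the share of Tuba1b among alpha-tubulin UMIs and of Tubb5 and Tubb3 among beta-tubulin UMIs, in percent, in bins of 5 percentage points, for the 5 main classes. Bars give the percentage of cells with at least 10 UMIs of the family, which 57.1% of GFP+ cones reached for beta-tubulin and 62.3% for alpha-tubulin. Neurogenic cells cover the range from the progenitor to the ganglion values, and the Tubb3 share of GFP+ cones, with a median of 10.7%, lies mostly below that of ganglion and amacrine cells.

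The other beta isotypes of neurons did not follow Tubb3 in each class. Tubb2b was at 305 CPM in progenitors, 405 in neurogenic cells, 3220 in ganglion cells, 2138 in amacrine cells and 908 in GFP+ cones, so that cones held 2.98 times (2.88 to 3.08) the progenitor level. Its share was highest in the GFP+ cones, at 26.9% (26.5 to 27.3%). Ganglion cells were at 20.2% (19.7 to 20.6%) and amacrine cells at 20.8% (20.1 to 21.5%), and these intervals overlapped. The cones of the GFP- library did not share the high GFP+ value. Over cells with at least 10 beta-tubulin UMIs, the mean Tubb2b share was 21.6% in 44 GFP- cones and 26.9% in GFP+ cones. In ganglion and amacrine cells this mean was 18.6% and 21%. Tubb2a, its close relative, was at 514 CPM (474 to 556) in amacrine cells, 314 (291 to 338) in ganglion cells, 40.3 in GFP+ cones and 27 in progenitors, where the order of the last pair turned per cell (log2 ratio -0.57). Its ganglion level was 0.61 of the amacrine level (0.547 to 0.681), an order that rested on the gene limit, since without it ganglion cells were at 548 CPM (527 to 569) and amacrine cells at 514. Tubb4a was at 173 CPM in ganglion cells, 73.8 in amacrine cells and 16.6 in progenitors, and in GFP+ cones it was 2.64-fold lower (2.08 to 3.39) than in progenitors, at 6.27 CPM.

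Tubb5, the most abundant beta isotype of progenitors, was well counted in every class: 3288 CPM in progenitors, 3638 in neurogenic cells, 5510 in ganglion cells, 3710 in amacrine cells and 1889 in GFP+ cones. Its share was 80.6% in progenitors and 34.5% in ganglion cells, whereas its level in ganglion cells was 1.68-fold higher (1.64 to 1.71). The level was 1.13-fold higher (1.09 to 1.16) in amacrine cells by CPM, a direction that turned under TMM factors (log2 ratio -0.01) and per cell (-0.26), and 1.74-fold lower (1.72 to 1.77) in cones. Tubb4b and Tubb6 were low in all neurons. Tubb4b was at 298 CPM in progenitors, 422 in neurogenic cells, 119 in ganglion cells, 61.4 in amacrine cells and 76 in GFP+ cones. Tubb6 was at 36.4 CPM in progenitors and 83.9 in neurogenic cells, while 8 UMIs were counted in ganglion cells, 5 in amacrine cells and 11 in GFP+ cones, the last a level 47.5-fold lower (26.4 to 95.7) than in progenitors.

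**Figure D3:**
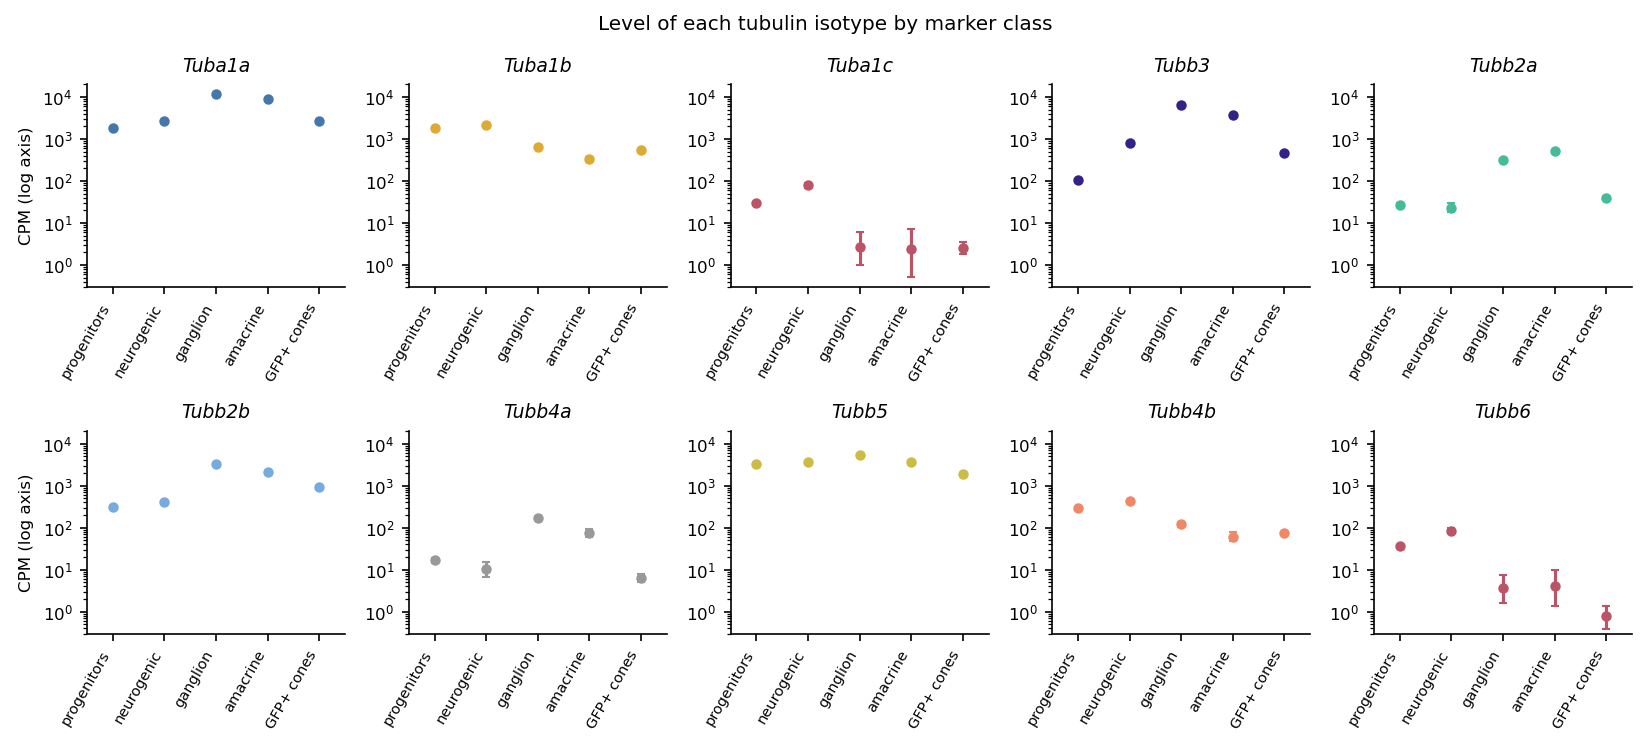
Level of each isotype in CPM, on a log axis, in the 5 main classes, with exact 95% Poisson intervals (counting error only; where no bar shows, it is smaller than the point). Tubb3, Tubb2a, Tubb2b, Tubb4a and Tuba1a are highest in ganglion or amacrine cells, Tuba1b, Tuba1c, Tubb4b and Tubb6 in neurogenic cells, and Tubb5 spans 1889 to 5510 CPM.

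The alpha isotypes also differed in share between these classes. Progenitors held Tuba1a and Tuba1b at 49.8% (49.4 to 50.2%) and 49.4% (49 to 49.8%) of alpha-tubulin UMIs, shares whose intervals overlapped. In ganglion cells Tuba1a made up 94.8% and in amacrine cells 96.3%, and Tuba1b 5.18% (4.92 to 5.45%) and 3.64% (3.3 to 4.01%). GFP+ cones lay between, with 82.6% Tuba1a and 17.4% (17 to 17.7%) Tuba1b. Tuba1a was at 1891 CPM in progenitors, 2662 in neurogenic cells, 11826 in ganglion cells, 8813 in amacrine cells and 2674 in GFP+ cones. Tuba1b went the other way, from 1877 CPM in progenitors and 2146 in neurogenic cells to 646, 333 and 562 CPM in ganglion cells, amacrine cells and GFP+ cones. In GFP+ cones Tuba1b was 3.34-fold lower (3.26 to 3.42) than in progenitors, and Tuba1a was 1.41-fold higher (1.39 to 1.44) by CPM but lower per cell (log2 ratio -0.65). Tuba1c, at 29.8 CPM in progenitors and 80.6 in neurogenic cells, gave 6 UMIs in ganglion cells, 3 in amacrine cells and 37 in GFP+ cones. The tubulins of both families together took 0.788% of all UMIs in progenitors, 2.84% in ganglion cells, 1.94% in amacrine cells and 0.661% in GFP+ cones, with 1.07, 1.28, 1.12 and 1.04 beta UMIs for each alpha UMI.

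The alpha genes are near copies of each other, and reads that matched several genes could not be followed here. Tuba1a, Tuba1b and Tuba1c lie within a single stretch of chromosome 15 of GRCm38, at 98949837 to 98953703 and 98931425 to 98934565 on the minus strand and at 99029891 to 99038110 on the plus strand (GENCODE M21). In the last 500 bases of their transcripts, where 3′ reads fall, 56.3%, 63.6% and 68.3% of all 50-base stretches also occurred in another transcript, in each other or in pseudogenes. For Tubb2a the figure was 42.4%, nearly all in Tubb2b, and for Tubb4b 35.3%, in pseudogenes. For Tubb2b, Tubb3, Tubb4a, Tubb5 and Tubb6 it was 0%. Tubb3 lies on chromosome 8 at 123411424 to 123422015 (plus strand), Tubb2a and Tubb2b on chromosome 13 at 34074274 to 34078007 and 34126748 to 34130466, Tubb4a and Tubb5 on chromosome 17 at 57080066 to 57087782 and 35833921 to 35838306, and Tubb4b on chromosome 2 at 25222160 to 25224702 (all minus strand). Tuba1a and Tuba1b also overlap the exons of Gm49450 on their own strand, and Tuba1b and Tubb4b those of Gm41396 and Fam166a on the other strand. The alpha values and those of Tubb2a and Tubb4b are therefore less certain than those of Tubb3 and Tubb5.

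The members past a 2-fold ratio to progenitors were counted beside all genes with at least 10 UMIs over the pair. In ganglion cells 5 members (Tuba1a, Tubb2a, Tubb2b, Tubb3, Tubb4a) were at least 2-fold higher, where 16.4% of 13399 genes were, and 4 (Tuba1b, Tuba1c, Tubb4b, Tubb6) at least 2-fold lower, where 20.8% were. The same 5 members were higher and the same 4 lower in amacrine cells, against 19.8% and 19.9% of 13319 genes. In GFP+ cones 2 members were higher (Tubb2b, Tubb3), no more than the 29.1% of 14536 genes that were, and 5 were lower (Tuba1b, Tuba1c, Tubb4a, Tubb4b, Tubb6), against 15.8%. Tubb5 made a further member lower in cones under TMM factors (20.5% of genes lower) and per cell (40.7%). Its log2 ratios were -1.15 and -1.95 in place of -0.80. Without the gene limit the log2 ratio to progenitors in ganglion cells moved from 3.54 to 4.33 for Tubb2a, from -3.31 to -4.90 for Tuba1c and from -3.22 to -4.22 for Tubb6. The 3 comparisons share the progenitors. The median log2 ratio of the members was 1.69, 1.17 and -1.10, and that of all genes -0.05, 0.09 and 0.41. TMM factors moved the median of all genes in the cone comparison to 0.06 and mean UMIs per cell to -0.74. Under the latter no member was 2-fold higher in cones (11.2% of genes were), with Tubb3 at a log2 ratio of 0.94 and Tubb2b at 0.42.

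**Figure D4:**
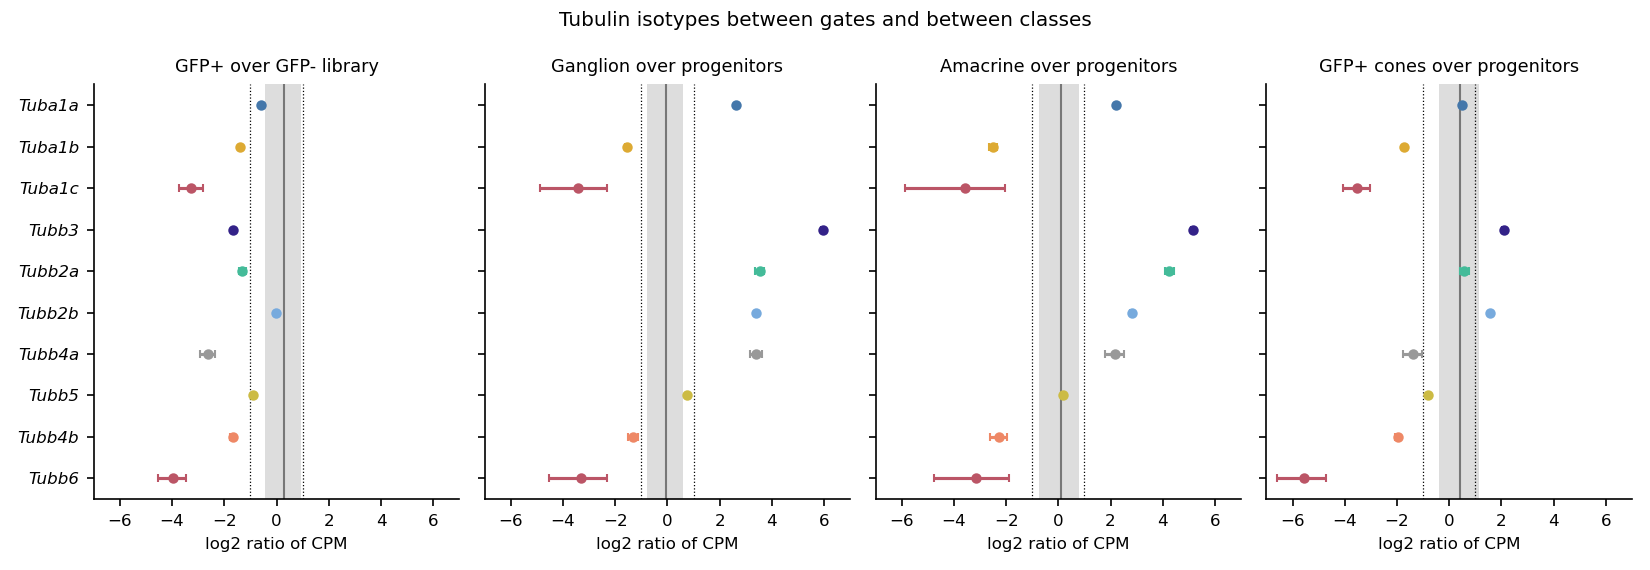
Log2 ratio of CPM of each isotype between the libraries and between each neuron class and progenitors, with exact 95% intervals (counting error only). The grey line and band are the median and the quartiles of all genes with at least 10 UMIs, and dotted lines mark 2-fold. Tubb3 has the highest ratio to progenitors in all 3 neuron classes, and Tuba1b, Tuba1c, Tubb4b and Tubb6 lie past 2-fold downward in all 3.

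Between the gates, the Tubb3 share of beta-tubulin was 14.2% (13.9 to 14.5%) in the GFP+ and 23.5% (23.4 to 23.7%) in the GFP- library, a difference of -9.37 percentage points (-9.71 to -9.02). The difference depended on how cells were weighted: averaged over cells with at least 10 beta-tubulin UMIs, the shares were 13.3% and 15.2%, a difference of -1.91 points. Of GFP+ cones, 57.1% reached this minimum. The shares of Tubb5 had overlapping intervals in the libraries, 55.9% (55.5 to 56.3%) and 55.8% (55.6 to 56.1%), and Tubb2b was at 26.2% in the GFP+ against 14% in the GFP- library. Tuba1b made up 17.5% and 26.7% of alpha-tubulin UMIs. By level, 7 of 10 members were at least 2-fold lower in the GFP+ library (16.2% of 15236 genes) and none 2-fold higher (23% of genes), and Tubb2b did not differ beyond counting error by CPM, at 914 and 922. The log2 ratio of Tubb2b was -0.34 under TMM factors and -1.09 per cell, settings that moved the median of all genes from 0.30 to -0.03 and -0.78. Without the limit on genes, which had removed 23.8% of GFP- cells, the log2 ratio was -0.79 for Tubb2b, and it moved from -1.30 to -2.27 for Tubb2a and from -2.62 to -3.43 for Tubb4a. The number of members at least 2-fold lower was then 9 (17.2% of genes), with Tuba1a (-1.09) and Tubb5 (-1.10) among them. It was 8 under TMM factors, where 20.9% of genes were lower, and 10 per cell, where 41.4% were. Tubb3 was at 495 CPM in the GFP+ and 1554 in the GFP- library, and Tuba1a at 2754 and 4182. A summed library does not separate fewer cells of a type from less RNA per cell. The progenitors (21 cells) and amacrine cells (9 cells) found in the GFP+ library had Tubb3 shares of 2.65% (1.58 to 4.16%) and 45.1% (41.4 to 48.8%), and Tuba1b shares of 49% and 2.88%.

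The isotypes of progenitors divided further with mitotic markers (Ccnb1, Plk1 and 6 others). Between 681 mitotic progenitors with at least 5 such UMIs and 468 without any, Tuba1c was at 68.9 against 3.59 CPM, 19.2-fold higher (11.3 to 35.3). Tubb4b was at 486 against 141 CPM, 3.45-fold higher (3.15 to 3.78), and Tubb6 at 49.1 against 24.4 CPM, 2.01-fold higher (1.6 to 2.55). These 3 were the only members past 2-fold (3.65% of 12350 genes were higher and 5.19% lower), and their ratios stood above those of 99.8%, 98.5% and 96.4% of genes. Tubb6 lay at the limit and was under it with no UMI of another class (log2 ratio 0.79) and with up to 3 (0.98). This left 2 members, where 3.9% and 3.53% of genes were higher. Tuba1b was 1.55-fold higher (1.5 to 1.6), whereas Tuba1a (1.03-fold, 0.999 to 1.06) and Tubb2b (0.98-fold, 0.913 to 1.05) did not differ beyond counting error. Tubb3 was lower in the mitotic progenitors, at 102 against 144 CPM (0.707-fold, 0.632 to 0.792). The median depth of the cells was 10030 and 8345 UMIs, and its part in the result was not tested.

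Upstream sequence is given for 3 members, the pair with the highest mitotic ratios and Tubb2a, whose level did not differ beyond counting error (1.14-fold, 0.888 to 1.46). The 250 bases before the RefSeq start site (GRCm38.p6) are printed on the strand of the gene, with the CCAAT box, an element common in promoters of cell cycle genes, in capitals (CCAAT or, on the other strand, ATTGG). Tubb4b, chr2:25224703-25224952, minus strand, had 5 boxes, a number that 0.213% of 32851 mouse promoters reached.
Tubb4b: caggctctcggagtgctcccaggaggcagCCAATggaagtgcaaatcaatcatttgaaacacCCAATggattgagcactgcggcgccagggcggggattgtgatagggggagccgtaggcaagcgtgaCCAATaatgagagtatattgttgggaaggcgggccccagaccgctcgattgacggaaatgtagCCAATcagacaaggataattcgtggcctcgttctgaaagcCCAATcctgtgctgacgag
Tuba1c, chr15:99029641-99029890, plus strand, had 1 box, as 33.8% of promoters had at least 1.
Tuba1c: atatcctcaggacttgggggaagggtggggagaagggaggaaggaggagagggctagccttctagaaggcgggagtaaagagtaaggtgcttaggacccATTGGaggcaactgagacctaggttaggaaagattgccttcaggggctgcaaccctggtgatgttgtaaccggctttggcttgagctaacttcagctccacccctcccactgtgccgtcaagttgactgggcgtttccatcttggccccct
Tubb2a, chr13:34078009-34078258, minus strand, had none.
Tubb2a: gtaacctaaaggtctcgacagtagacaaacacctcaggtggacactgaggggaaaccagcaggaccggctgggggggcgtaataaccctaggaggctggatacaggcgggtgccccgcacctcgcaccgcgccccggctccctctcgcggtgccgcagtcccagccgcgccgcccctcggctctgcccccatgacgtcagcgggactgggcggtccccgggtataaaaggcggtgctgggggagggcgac
Of the 8 members whose windows were searched, Tubb5 had 2 boxes (10.1% of promoters had at least 2), at a mitotic progenitor ratio of 1.25. Tuba1a and Tubb3 had 1, at ratios of 1.03 and 0.707, and Tuba1b and Tubb4a had none, at 1.55 and 0.741. Tubb2b and Tubb6 had no window searched, though Tubb6 was past 2-fold in mitotic progenitors. Whether boxes go with the ratios was not tested. No box overlapped another motif that was searched on both strands (the E-box CANNTG, the TATA box TATAAA and the GC box GGGCGG). Tubb2a had the TATA box at 29 bases before its start, as 12.4% of promoters had at least 1 in the window. A match describes these letters and is no binding site.

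Neurogenic cells, which carry proneural factors, held isotype shares between those of progenitors and ganglion cells for Tubb3, Tubb5, Tuba1a and Tuba1b. As a whole, 3 members were at least 2-fold higher than in progenitors (7.27% of 13307 genes), Tubb3 by 7.44-fold (6.99 to 7.93), Tuba1c by 2.71-fold (2.3 to 3.18) and Tubb6 by 2.3-fold (1.97 to 2.69), and none was 2-fold lower (13.6% of genes). Mitotic markers divided this class as well. In 193 mitotic neurogenic cells Tubb3 made up 10.3% (9.66 to 10.9%) of beta-tubulin and Tubb5 70.1%, whereas in 43 cells without mitotic UMIs Tubb3 made up 35% (32.8 to 37.3%) and Tubb5 50.9% (48.6 to 53.3%). Tuba1b made up 49.7% (48.7 to 50.7%) of alpha-tubulin in the mitotic and 16.8% (14.9 to 18.9%) in the non-mitotic cells. In levels, 4 members were at least 2-fold higher in the mitotic cells (Tuba1b, Tuba1c, Tubb4b, Tubb6), where 11.2% of 9273 genes were. Tubb3 and Tubb4a were the 2 lower members, where 10.4% of genes were. Tuba1c had 214 UMIs in mitotic and 1 in non-mitotic cells (40.7-fold, 7.23 to 1615), and Tubb6 had 188 and 10. Tubb4a had 13 and 6 UMIs and a ratio whose interval included 1 (0.412, 0.146 to 1.32). The median depth was 9014 UMIs in mitotic and 7204 in non-mitotic cells, and its part was not tested. Tubb3 was present in mitotic neurogenic cells at 582 CPM, 5.72-fold (5.19 to 6.31) the 102 CPM of mitotic progenitors, and stood at 1879 CPM in the non-mitotic ones. The latter also held more Crx (141 against 6.39 CPM) and Stmn2 (278 against 126 CPM). Of the other cone markers outside the rule, Otx2 went the other way, at 443 CPM in non-mitotic against 696 in mitotic cells. Pdc and Gnat2 had at most 1 UMI in either group. The rule itself limited the ganglion list to 1 UMI per cell. Within that list, Isl1 had 7 UMIs in non-mitotic and 12 in mitotic cells (21.4 and 6.97 CPM). Pou4f1 had 0 and 5 UMIs, and Pou4f2 had 1 in each group. Of the progenitor markers outside the rule, Dapl1 (183 against 99.9 CPM) and Zfp36l1 (156 against 105) were higher in non-mitotic cells and Lhx2 lower (122 against 154). In the progenitor list, Ccnd1 was at 1362 against 825 CPM and Hes1 at 76.4 against 97. The Tubb3 share of single non-mitotic cells had quartiles of 11.6% and 48.1%. Its standard deviation was 19.8 points, against 8.55 at a common share. The part of cells still like progenitors, or already on the way to photoreceptors or ganglion cells, was not tested.

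**Figure D5:**
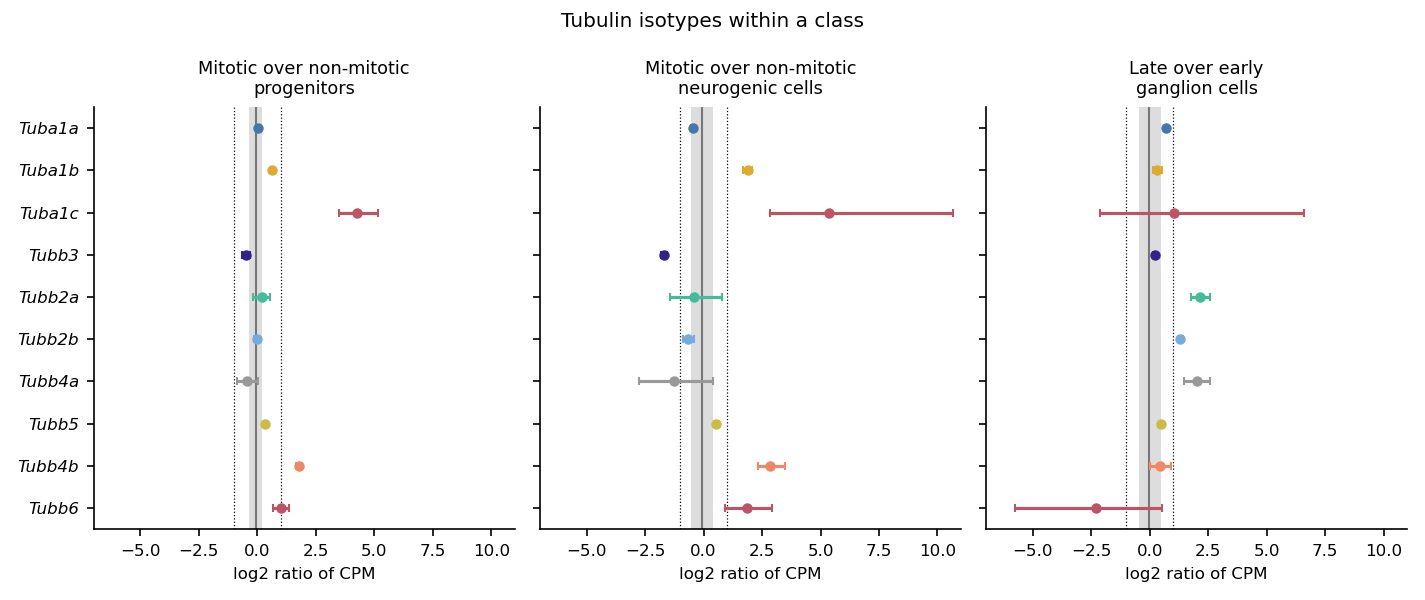
Log2 ratio of CPM of each isotype between mitotic and non-mitotic progenitors, between mitotic and non-mitotic neurogenic cells and between late and early ganglion cells, with exact 95% intervals (counting error only). Grey marks the median and quartiles of all genes and dotted lines 2-fold. Tuba1c, Tubb4b and Tubb6 are high in mitotic cells of both kinds. Tubb3 is lower in mitotic cells of both kinds, past 2-fold in neurogenic cells only. Tubb2a, Tubb2b and Tubb4a are higher in late ganglion cells.

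Within ganglion cells the neuronal isotypes differed unequally. Cells with no UMI of Pou4f1, Rbpms or Sncg (60, early) were set against cells with at least 2 (126, late). Gap43 was at 358 CPM in early and 2958 in late cells and Nefl at 34.4 and 1129, so the groups differed strongly in maturity genes that did not define them. The median depth was 9218.5 UMIs in early and 11356.5 in late cells, with 114 and 195 beta-tubulin UMIs per cell, and the part of depth was not tested. By CPM, Tubb3 was nearly level, 5987 in early and 6946 in late cells (1.16-fold, 1.12 to 1.21). In contrast, Tubb2a was 4.43-fold higher (3.37 to 5.94) in late cells, Tubb4a 4.01-fold (2.8 to 5.93) and Tubb2b 2.47-fold (2.3 to 2.65). Tubb2a, Tubb4a and Tubb2b were the 3 members past 2-fold upward (12.1% of 9187 genes), and none of the 8 with enough UMIs was downward (7.3%). As a share, Tubb3 was thus higher in early cells, 48.5% (47.3 to 49.7%), than in late cells, 38.4% (37.8 to 39%), and Tubb2b lower, 13.6% against 22.8%. The gene limit bore on the late cells, whose number went from 126 to 304 without it, with a Tubb3 share of 35.1% and a Tubb2a ratio of 2.71 on the log2 scale. With no UMI of another class Tubb4b also passed 2-fold (11% of genes were higher), at a log2 ratio of 1.14 in place of 0.43.

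Cones were compared by gate and by state. The 51 cones of the GFP- library held more Tubb3 than GFP+ cones, 1260 (1130 to 1402) against 455 CPM, 23% (20.9 to 25.3%) against 13.5% of beta-tubulin, and their alpha-tubulin was 87.3% (85.4 to 89.1%) Tuba1a against 82.6%. Some cone genes were lower in them, with Gngt2, a cone transducin subunit, at 665 against 1945 CPM and Pdc at 327 against 756 CPM, others were close, with Crx at 833 against 848 CPM, while Stmn2 was at 628 against 293 CPM and Gap43 at 74.4 against 13.2 CPM. The part of free RNA and of the gate in this difference was not tested. Among GFP+ cones, the 148 with a UMI of Opn1sw (S-opsin) had a lower Tubb3 level than the 3324 without, 283 against 463 CPM (0.611-fold, 0.522 to 0.711), and a share of 9.87% (8.51 to 11.4%) against 13.6%. The 400 cones with at least 3 UMIs of amino-acid stress genes such as Trib3 and Chac1 differed little from the 1873 with none: Tubb3 made up 15.1% (14.2 to 16%) against 12.9% (12.5 to 13.3%) and Tubb5 51.5% against 56.8%. No member was past 2-fold, where only 4.9% of 12457 genes were higher and 2.91% lower.

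Other genes of the tubulin system were taken from 4 lists. Of 24 microtubule-associated proteins found, 15 were at least 2-fold higher and 1 lower than in progenitors in ganglion cells, the same numbers in amacrine cells, and 8 higher and 3 lower in GFP+ cones. Of all genes, 16.4%, 19.8% and 29.1% were 2-fold higher in these comparisons and 20.8%, 19.9% and 15.8% lower, so that the cone count was near that of all genes. Dcx, doublecortin, was at 107 CPM in ganglion cells, 120 in amacrine cells and 49.6 in GFP+ cones against 2.67 in progenitors, and Map2, a dendritic protein, at 121, 58.9 and 109 against 7.72. Mapt (tau) parted the neurons, with 257 and 138 CPM in ganglion and amacrine cells, 1.11 in GFP+ cones and 5.05 in progenitors. Map1b was at 1831, 670 and 1490 CPM in the 3 neuron classes and 339 in progenitors, and Mapre1 stayed within 2-fold. Mapre3, Clip2, Clasp2 and Camsap3 were also past 2-fold upward in all 3 neuron classes, at 12.4 to 68 CPM. Of 25 tubulin-modifying enzymes, 22, 22 and 23 had enough UMIs in ganglion cells, amacrine cells and GFP+ cones, of which 6, 6 and 7 were higher and 2, 2 and 0 lower, with the cone count again near the 29.1% of all genes. Atat1, the alpha-tubulin acetyltransferase, was at 257, 244 and 138 CPM against 55.5 in progenitors, and the glutamylases Ttll1 and Ttll7 and the little-counted Ttll11 went the same way. Sirt2, a deacetylase, was at 159 CPM in GFP+ cones against 42.3 in progenitors, and Svbp stayed within 2-fold. Of 14 genes found of tubulin folding and autoregulation, 2 were 2-fold higher and none lower in each neuron class, no more than the 16.4%, 19.8% and 29.1% of all genes, and Tbca, Cct5 and Cct7, the most abundant, stayed within 2-fold. Of 10 minor tubulins, 4, 4 and 5 had enough UMIs, of which 1 was higher in each neuron class and 2, 1 and 0 were lower, numbers too small to set apart from those shares. Tubg1, the gamma-tubulin of the centrosome, was at 79.2 CPM in progenitors and at 87.1, 92 and 54 CPM in the neurons. Tubg2 and Tube1 did not pass 14.9 CPM in these classes.

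Among 2391 genes with at least 100 CPM in a class, the genes closest to Tubb3 over the 5 main classes, by root mean square difference of centred log2(CPM + 1), were Smpd3 (0.21), Elavl3 (0.40) and Stmn2 (0.62). Smpd3 was at 3.5 CPM in progenitors, 217 in ganglion and 100.3 in amacrine cells with 13.9 in GFP+ cones, and Elavl3, a neuronal RNA-binding protein, was at 11.5, 820, 862 and 45.3 CPM. Closest to Tuba1a were Gm9844 (0.17), Tmeff1 (0.18) and Basp1 (0.20), and closest to Tubb5 Ywhaq (0.08), H2afy2 (0.10) and Arhgdia (0.11). The likeness is over 5 summed classes and describes these libraries alone.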

How the data were processed

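Single-cell 3′ libraries of the GFP+ and GFP- fractions, 1 of each, were analysed. The authors deposited raw UMI counts per gene and cell from Cell Ranger 2.1.1 (mm10, GRCm38), with barcodes already called as cells, and no normalization. Following the study's methods, the filter asked for at least 250 and under 3500 genes per cell and for less than 0.25 of the UMIs from mitochondrial genes (a limit that the methods print as a percentage and that was read as a fraction), which removed 1.05% of GFP+ and 23.8% of GFP- cells. The limit on genes removes the deepest cells. Doublets were left in; Scrublet called 3 GFP+ and 55 GFP- cells, of which 2 and 0 had been kept.

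Class profiles are sums of UMIs over cells. Shares within the alpha or beta family carry exact Clopper-Pearson intervals, CPM exact Poisson intervals and ratios exact conditional intervals, all at 95% and for counting error only. With 1 library per gate and cells that are not replicates, no p-value was computed. A gene was called past 2-fold with 0.5 added to both sums and at least 10 UMIs over the pair. Named genes of the other lists were the 3 most abundant of each list and those past 2-fold in all 3 neuron classes. The members and lists were chosen with earlier results of these data known. Alternatives were another limit on genes or markers, per-cell means, thinning, doublet removal, TMM factors (edgeR 4.0.16) and UMIs per cell. The ratio intervals and 2-fold calls alone were tested on simulated data, as Poisson sums without variation between cells. Python 3.11.15, scipy 1.17.1, scanpy 1.11.5 and R 4.3.3 were used.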

Additional observations from a re-analysis of the deposited data

How the results depend on the processing

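No paired analysis was possible because each gate had 1 library and the labels gave no replicate numbers, and for the same reason no library could be left out in turn. The Tubb3 share of GFP+ minus GFP- libraries was -10.9401 percentage points without the upper limit on genes, -1.91441 as a mean of per-cell shares and -10.2203 after thinning to 3200 UMIs. For ganglion cells minus progenitors it was 34.5577 without the upper limit, 39.7698 with no UMI of another class, 37.9658 with up to 3 such UMIs, 40.1367 as a mean of per-cell shares, 39.5325 after thinning and 41.501 after taking the scaled ganglion profile off progenitors. That last setting gave 36.7752 for amacrine cells and 13.4631 for GFP+ cones. The cone difference was 10.514 with up to 3 UMIs of another class, 10.2862 as a mean of per-cell shares and 10.3047 after thinning. All these kept their direction. The profile subtraction could not have turned it, as taking off a profile richer in Tubb3 only lowers the progenitor share. Members at least 2-fold higher in GFP+ cones than in progenitors numbered 0 by mean UMIs per cell (11.2% of genes). Members lower in neurogenic cells than in progenitors numbered 1 at 1.5-fold (22.7% of genes). Members lower in mitotic neurogenic cells numbered 1 with no UMI of another class (11.5%) and 1 with at least 100 UMIs over the pair (1.98%). Members lower in late ganglion cells numbered 1 with up to 3 UMIs of another class (7.4%) and 1 with no UMI minimum (15.2%). The cause was not tested. The settings with up to 3 UMIs of another class and with the scaled ganglion profile taken off were chosen after seeing the data. Of the repeats, 18 of 32 share differences and 154 of 160 counts stayed within counting error or 1.5 times, as did 424 of 560 single ratios and 383 of 500 single shares within counting error. Some repeats could not move a value, as the marker settings and the profile subtraction leave both library sums unchanged. Removing doublets took out 2 kept GFP+ cells and 0 kept GFP- cells. The tallies count such repeats and so overstate how well the results held. Depth limits Tuba1c and Tubb6 in neurons, where sums were 3 to 37 UMIs.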

Other observations

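Tuba4a, an alpha-tubulin outside the main isotypes and named here after its values were seen, was the 1 minor tubulin past 2-fold in GFP+ cones. It had 159 UMIs (11.1 CPM) in GFP+ cones, 2 UMIs (0.119 CPM) in progenitors, 6 UMIs (2.76 CPM) in ganglion cells and none in amacrine cells. The cones of the GFP- library held 5 UMIs of Tuba4a (18.6 CPM), a ratio to GFP+ cones of 1.68 (0.538 to 4). Its level in cones was 4.01 times (1.8 to 11.1) that of ganglion cells, and in all cases it was far below Tuba1a and Tuba1b.

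Mapt, which encodes tau, also set ganglion cells apart from cones, with a level 230-fold higher (141 to 406) in ganglion cells than in GFP+ cones, where it had 16 UMIs. Within ganglion cells Mapt was at 395 CPM in late and 32.5 CPM in early cells, 12.1-fold higher (7.61 to 20.6), and Dcx at 158 and 19.9 CPM, 7.95-fold higher (4.35 to 16.2). By CPM, Tubb3 differed by 1.16-fold between the same cells.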
